A study of Mus musculus with 40 samples.

Results

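Chitin and anti-PD-1 were given to 4T1 tumor-bearing mice alone and together, and the expression of 14318 genes was examined for departures of the combination from the sum of both separate treatments. All 19 4T1 primary tumors of the RNA-sequencing table were used, out of 39 tumors of the study that the table holds. They comprised 4 untreated tumors (numbered 1, 2, 4 and 5), 5 anti-PD-1-treated tumors, 5 chitin-treated tumors and 5 chitin + anti-PD-1-treated tumors. Wild-type female BALB/c mice were mated at 8 w of age, and luciferase-expressing 4T1 cells, a mouse mammary carcinoma line used as a model for triple-negative breast cancer, were injected into the milk ducts of the lactating mothers after weaning. Chitin (1 mg every 3 d) and an anti-PD-1 antibody of clone RMP1-14 (200 µg weekly) were injected intraperitoneally from 3 w post-inoculation (p.i.), and tumors were removed at 5 w p.i. The untreated mice carried the same tumors, and neither an isotype antibody nor a vehicle is named for them in the labels. Every tumor grew from 1 cell line, and each library came from bulk frozen tissue. Whether fewer cells of a type or less RNA per cell lies behind a lower value can therefore not be told apart here.

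PD-1 is an inhibitory receptor of activated T cells, and antibodies that block it are meant to release T cells from this brake. Chitin is a polymer of shrimp shells and fungal walls that is bound by chitinase-like proteins such as CHI3L1 and CHI3L3, which lack enzymatic activity and are produced by macrophages, neutrophils and tumor cells. The question of the design is whether the response of a tumor to anti-PD-1 is the same with chitin as without it. For each gene, the difference between anti-PD-1 and untreated tumors was subtracted from the difference between chitin + anti-PD-1 and chitin tumors. This interaction is 0 when the separate differences add up, positive when the combination lies above their sum and negative when it lies below. Values are on the log2-like scale of the deposited table, on which 6.05 stands for 0 reads and, at high counts, a step of 1 is close to a doubling. Low counts are compressed on this scale, and additivity on it corresponds, at high counts, to multiplying fold changes.

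The 19 tumors had between 5105898 and 13156621 reads in the listed genes, with a median of 6590274. Epithelial tumor cells were evident in every library, since Krt8, Krt18 and Epcam, genes of epithelial keratins and an epithelial adhesion molecule, ranged from 12.19 to 14.08, from 11.95 to 13.89 and from 11.03 to 13.36, respectively. Genes of the surrounding mammary fat pad and gland differed between tumors of 1 group. The mean of 12 adipocyte genes was 10.25, 6.48, 8.46, 9.42 and 9.06 in anti-PD-1 tumors 1 to 5, and between 6.65 and 7.79 in the untreated tumors. It ran from 6.67 to 9.20 in the chitin tumors and from 6.79 to 9.13 in the chitin + anti-PD-1 tumors. Summed over these genes, the normalized counts ranged from 227.5 to 23780 in the anti-PD-1 group, from 369.0 to 2123 in the untreated group, from 279.7 to 10410 in the chitin group and from 369.7 to 9210 in the combination group. Anti-PD-1 tumor 2 thus stood apart from the 4 other tumors of its group, which were the richest in adipocyte transcripts together with 2 chitin tumors and 1 combination tumor. In this tumor, Adipoq and Csn2, genes of the fat hormone adiponectin and of a milk casein, were at 0 reads. Values without this tumor are given beside several of the results.

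No gene passed an adjusted p of 0.05 for the interaction in 4T1 tumors, so 0% of 14318 genes were called by limma, and 0 were called by limma-voom fitted to the reads behind the values. The smallest adjusted p was 0.927, and the median interaction of all genes was 0.0016. At an unadjusted p of 0.05, 648 genes (4.53%) were past the threshold by limma, of which 339 (2.37% of all genes) were positive and 309 (2.16%) were negative, and limma-voom gave 561. All counts of single genes below are therefore read against these shares, and no gene below is called at an adjusted p. Members of a list mark 1 cell type or process and can move together in a bulk tumor. They are not independent replicates, so a count of members describes and is no test. Without anti-PD-1 tumor 2, 1421 of the 14318 genes were at an unadjusted p under 0.05 by limma. The number was 994 without untreated tumor 5, 844 without combination tumor 5 and 815 without chitin tumor 1. It was 637 without untreated tumor 1, 442 without untreated tumor 2 and 383 without chitin tumor 5. Counts of list members without a tumor are read against the number of the same fit. Anti-PD-1 tumor 2 stood apart from its group in the B-cell, dendritic cell and hypoxia list means. Higher counts of these lists without it therefore add no support. The interaction contrasts 4 group means, and its median SE over genes was 0.172, against 0.125 for the difference between anti-PD-1 and untreated tumors. Anti-PD-1 alone and anti-PD-1 on top of chitin did not pass the adjusted threshold for any gene either, where 1273 and 445 genes, respectively, had an unadjusted p under 0.05.

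Genes at an unadjusted p under 0.05 mostly had anti-PD-1 differences of opposite sign without and with chitin. This was the case for 592 of the 648 genes (91.4%), against 6702 of all 14318 genes (46.8%), a pattern that selection on a large interaction favors by construction. In 13 genes both differences had the same sign and the one with chitin was larger, and in 43 genes it was smaller. The anti-PD-1 difference was larger in size without chitin than with chitin for 472 of the 648 genes (72.8%) and for 8561 of all genes (59.8%). Over all 14318 genes, which are not independent replicates, the differences without and with chitin correlated with a Pearson's r of 0.175 and a Spearman's rho of 0.128, and both come from separate tumors. Their SDs over genes were 0.239 and 0.159.

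**Figure D1:**
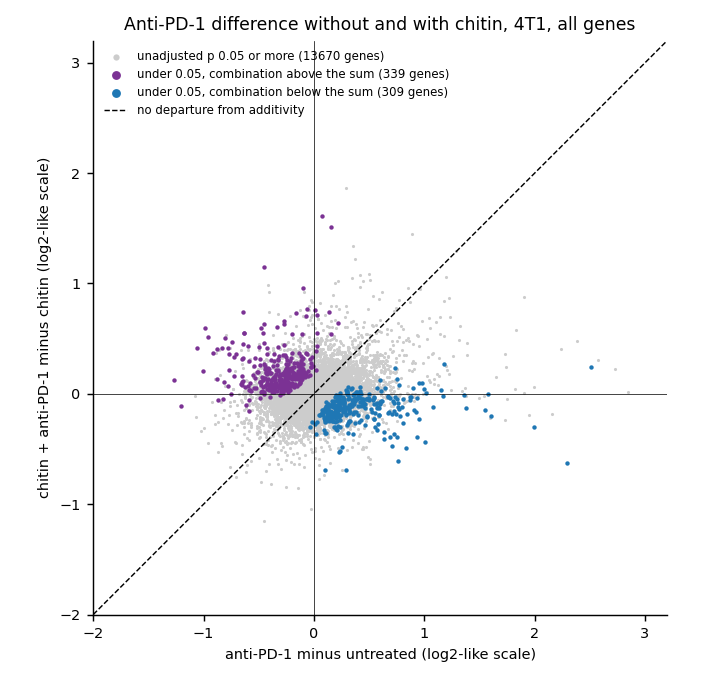
Difference between anti-PD-1 and untreated 4T1 tumors (x axis) against the difference between chitin + anti-PD-1 and chitin tumors (y axis), both on the log2-like scale, for each of 14318 genes; the dashed line marks additivity. The 339 genes past an unadjusted p of 0.05 above the line lie mostly left of 0 and the 309 below it lie mostly right of 0.

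The 12 genes with the smallest unadjusted p among positive interactions were Plekha3, Pbp2, Mtfr1, Cxcr2, Hspb8, Add2, Ankrd50, Hoxa6, Katnbl1, Smarcad1, Ankrd37 and Mbd5, with interactions from 0.30 to 1.22. Plekha3 (Entrez 83435, mm10 chromosome 2, 76675305 to 76697335), which encodes a lipid-binding protein of the Golgi, headed this list with 0.46 ± 0.10 (SE, unadjusted p = 0.000209). Its values were 9.35, 9.12, 9.13 and 9.12 in untreated tumors, 8.89, 8.94, 8.84, 8.85 and 8.89 in anti-PD-1 tumors, and 8.85, 8.87, 9.05, 8.90 and 8.92 in chitin tumors. With both treatments they were 9.25, 9.02, 9.04, 9.14 and 8.99. Each single treatment thus lay below all untreated tumors, and the combination lay above all anti-PD-1 tumors and overlapped both the untreated and the chitin tumors. Add2, which encodes a subunit of the membrane skeleton protein adducin, had the largest interaction of the 12 (1.22 ± 0.36), with group means of 8.36 ± 0.51 in untreated, 7.36 ± 0.29 in anti-PD-1, 7.70 ± 0.48 in chitin and 7.91 ± 0.41 in combination tumors (SD, n = 4, 5, 5 and 5). Pbp2 rested on few reads, with group means between 0.83 and 4.49 normalized counts, and its expected level of 6.047 under additivity fell by a small margin below the value that stands for 0 reads.

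The 12 genes with the smallest unadjusted p among negative interactions were Gdpd3, A930015D03Rik, Fkbp2, Cd2, Rnf181, Creld2, Msx2, Kif21a, Slc25a42, Rps6kb2, Ccl22 and P4htm, with interactions from -0.34 to -1.33. Msx2, Gdpd3 and P4htm rested on few reads. Their group means lay between 0 and 6.54, between 5.73 and 14.43 and between 4.14 and 13.06 normalized counts, respectively. Msx2 had 0 reads in every untreated tumor. Fkbp2 and Creld2 encode proteins of the endoplasmic reticulum that assist protein folding. Their interactions were -0.51 ± 0.14 and -0.68 ± 0.20 (SE), with means of 8.20 and 9.52 in anti-PD-1 tumors against 7.81 to 7.92 and 8.96 to 9.17 in the 3 other groups. Cd2 and Ccl22, a T-cell adhesion molecule and a chemokine of dendritic cells, are described with their cell types below. All 24 genes of both directions stayed at an unadjusted p under 0.05 when any 1 of the 19 tumors was left out. They had been chosen for the smallest p in these same tumors, which favors this by construction.

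T-cell genes lay below additivity as a list. All 16 measured genes of the T-cell receptor and its coreceptors had a negative interaction, 11 of them at an unadjusted p under 0.05, and their median was -0.77, against 0.0016 for all genes. The median difference between anti-PD-1 and untreated tumors was 0.59, with all 16 genes higher in anti-PD-1 tumors. Between chitin + anti-PD-1 and chitin tumors it was -0.09, with 3 genes higher. The mean of the list was 7.48 ± 0.33 in untreated, 8.09 ± 0.28 in anti-PD-1, 7.43 ± 0.32 in chitin and 7.32 ± 0.31 in chitin + anti-PD-1 tumors (SD, n = 4, 5, 5 and 5). When 1 tumor was left out, the median ran from -0.90 to -0.66, and the count of 11 fell to 7 without untreated tumor 1, 2 or 4 or chitin tumor 5. It reached 15 without untreated tumor 5 or combination tumor 5, where 994 and 844 of all genes, respectively, were at that threshold. Without anti-PD-1 tumor 2 the count was 12 and the median -0.89. The size of the median also depended on the scale, since low counts are compressed in the deposited values. With limma-voom, which works on log2 reads relative to library size, it was -1.68, with 9 genes at an unadjusted p under 0.05, and on log2 of normalized counts plus 1 it was -1.70, with 8 genes.

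Cd2 (Entrez 12481, chromosome 3, 101275908 to 101287939) had the smallest p of these genes. It was at 6.66, 6.63, 6.95 and 7.27 in untreated tumors, 7.80, 7.18, 8.02, 7.74 and 7.98 in anti-PD-1 tumors, and 6.54, 7.28, 6.77, 6.71 and 7.14 in chitin tumors. In chitin + anti-PD-1 tumors it was at 6.58, 6.99, 6.74, 6.64 and 7.21, whereas additivity gives 7.76. Anti-PD-1 tumors 1, 3, 4 and 5 were above every tumor of the other groups, while tumor 2 lay among them. The interaction was -0.93 ± 0.26 (SE, 95% CI -1.48 to -0.38, unadjusted p = 0.00234), and it ran from -1.07 without anti-PD-1 tumor 2 to -0.83 without chitin tumor 2. In normalized counts, Cd2 averaged 107 ± 40 in anti-PD-1 tumors and between 21.9 and 25.9 in the other groups.

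The other members at that threshold had values of similar size. Cd3g, a chain of the CD3 signaling complex, had an interaction of -1.02 ± 0.33 (SE), the kinase gene Lck -1.07 ± 0.35 and Cd5, a receptor that dampens T-cell receptor signaling, -0.85 ± 0.28. The coreceptor genes Cd8a and Cd4 had -0.98 ± 0.45 and -0.85 ± 0.35. Cd8a was the least stable of them, with an unadjusted p under 0.05 in 9 of 19 fits that each left out 1 tumor, and Cd8b1 was at -0.61 ± 0.33 (unadjusted p = 0.0856). Cd8a ranged from 8.58 to 9.57 in anti-PD-1 tumors and from 7.26 to 8.82 in the combination, but its values also reached 9.03 in an untreated and 9.02 in a chitin tumor.

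Of 14 inhibitory checkpoint genes, 12 had a negative interaction, 4 at an unadjusted p under 0.05 and none positive at that threshold, with a median of -0.25. The median was -0.16 without untreated tumor 2, -0.40 without untreated tumor 5 and -0.83 with limma-voom. The count was 7 without untreated tumor 5, 6 without anti-PD-1 tumor 2 and 2 with limma-voom. Lag3, an inhibitory receptor of exhausted T cells, was at 7.44, 7.39, 7.54 and 8.19 in untreated tumors and at 8.23, 7.93, 8.45, 8.21 and 8.12 in anti-PD-1 tumors. It was at 7.85, 7.99, 7.36, 7.23 and 7.88 with chitin and at 7.14, 7.19, 7.58, 7.40 and 7.86 with both. All 5 combination tumors were below all 5 anti-PD-1 tumors, while the chitin tumors spanned the range between. Its interaction was -0.78 ± 0.26 (SE, unadjusted p = 0.00875). Pdcd1, which encodes PD-1 itself, had -0.78 ± 0.31, and Tox, a transcription factor of exhausted T cells, -0.70 ± 0.28. Cd274, the gene of the ligand PD-L1, and Havcr2, which encodes the receptor TIM-3, had interactions of 0.14 ± 0.52 and -0.09 ± 0.20, both far from the threshold.

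Among 18 genes of cytotoxic and natural killer effectors, 15 had a negative interaction and 4 an unadjusted p under 0.05, with a median of -0.35. With limma-voom the median was -1.28 and the count 5, and the count was 7 without chitin tumor 1 or combination tumor 5 and 8 without untreated tumor 5. Ccl5, a chemokine released by activated T and natural killer cells, averaged 9.41 in anti-PD-1 tumors and 7.74 to 7.83 in the other groups, with an interaction of -1.58 ± 0.60 (SE). Its lowest anti-PD-1 tumor was at 8.90, and only untreated tumor 5 (8.94) and chitin tumor 5 (9.01) reached above that. Nkg7 and Gzmk, genes of cytotoxic granules, had -0.85 ± 0.34 and -0.59 ± 0.21. Ifng and Il12b, genes of the cytokines interferon-gamma and IL-12, did not reach the threshold, with -0.25 ± 0.26 and -0.42 ± 0.25, and neither did Il18r1 with -0.71 ± 0.50. In the list of regulatory T-cell and costimulatory genes, 7 of 8 measured genes were negative and 3 were at an unadjusted p under 0.05 (median -0.45), namely Foxp3 (-0.43 ± 0.18), the lineage factor of regulatory T cells, Cd27 (-0.66 ± 0.25) and Tnfrsf18 (-0.53 ± 0.24). Foxp3 kept that threshold in 14 and Tnfrsf18 in 8 of 19 fits that each left out 1 tumor. The count of this list was 1 without anti-PD-1 tumor 5, chitin tumor 5, combination tumor 4 or untreated tumor 4, 5 without untreated tumor 5 or anti-PD-1 tumor 2 (median -0.56), and 6 without combination tumor 5. With limma-voom the count was 1 and the median -1.07. Of 9 listed genes, Ccr8 was not among the 14318.

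Genes of B cells and plasma cells also lay below additivity, with a median further from 0. All 8 measured genes of the list had a negative interaction, 7 at an unadjusted p under 0.05, with a median of -1.14. Their median difference was 1.00 between anti-PD-1 and untreated tumors and -0.07 between chitin + anti-PD-1 and chitin tumors. The count was 4 without untreated tumor 2 or chitin tumor 5 and 8 without anti-PD-1 tumor 2, and the median ran from -1.46 to -0.94. With limma-voom 0 of the 8 genes were at an unadjusted p under 0.05, although the median was -2.87. Cd79a (Entrez 12518), a signaling chain of the B-cell receptor, was at 6.24, 6.49, 6.84 and 6.92 in untreated tumors and at 8.35, 6.34, 7.40, 8.01 and 8.39 in anti-PD-1 tumors. It was at 6.35, 7.16, 6.44, 6.29 and 7.36 with chitin and at 6.69, 6.42, 6.61, 6.62 and 6.65 with both. The combination tumors lay within 0.27 of each other, and 4 of 5 anti-PD-1 tumors lay above all tumors of the other groups. The interaction of Cd79a was -1.20 ± 0.45 (SE, unadjusted p = 0.0164) and ran from -1.02 without anti-PD-1 tumor 5 to -1.54 without anti-PD-1 tumor 2. With limma-voom its unadjusted p was 0.217, and those of Cd79b and Mzb1, which encode the other signaling chain and a chaperone of antibody-secreting cells, were 0.103 and 0.105.

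Jchain (Entrez 16069, chromosome 5, 88519809 to 88527897), which encodes the joining chain of secreted antibodies, had the most negative interaction of all 14318 genes, -2.92 ± 1.25 (SE, unadjusted p = 0.0309). Its mean was 1732 ± 1833 normalized counts in anti-PD-1 tumors, 225 ± 238 in untreated, 485 ± 668 in chitin and 120 ± 109 in combination tumors (SD). The SDs were as large as the means or close to them in each group, so that its place rests on a wide spread. It was named for this rank after its values had been seen. The B-cell markers are sparse in these tumors, with summed normalized counts of the list between 33.2 and 6093. Adipocyte genes differed alongside them. Anti-PD-1 tumors 1, 3, 4 and 5 had B-cell list means of 8.50, 8.26, 8.52 and 8.58 and adipocyte means of 10.25, 8.46, 9.42 and 9.06, and tumor 2 had 6.77 and 6.48. In the other groups, chitin tumors 4 and 5 had adipocyte means of 9.20 and 8.70, B-cell means of 6.41 and 7.79 and T-cell means of 7.20 and 7.72. Combination tumors 4 and 5 had adipocyte means of 9.13 and 8.39, B-cell means of 6.96 and 7.14 and T-cell means of 7.21 and 7.86. Tumor 5 of both groups was thus high in lymphocyte genes for its group, while tumor 4 of the chitin group was not. The part of adjacent mammary tissue in the lymphocyte results was not tested.

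**Figure D2:**
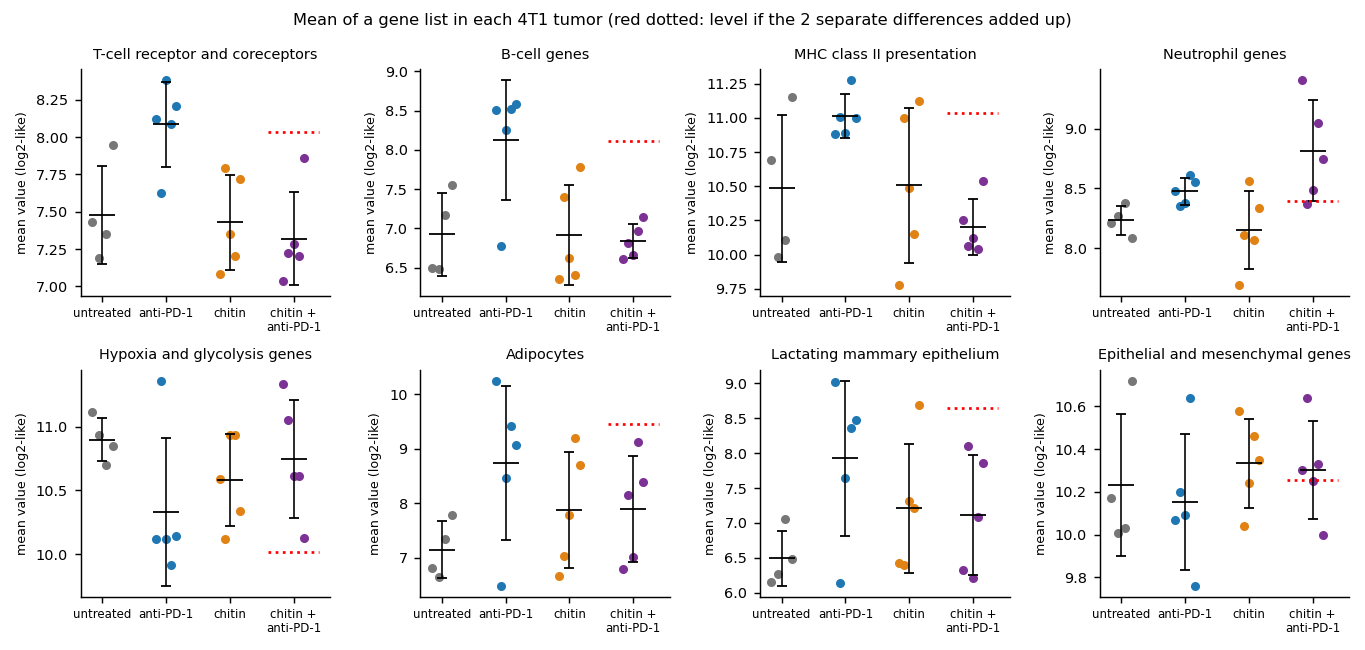
Mean of the measured genes of 8 lists in each 4T1 tumor (y axes, log2-like scale) by treatment group (x axes); points are tumors, black bars the mean ± SD, and the red dotted line the level of the combination if both separate differences added up. For T cells, B cells, MHC class II, adipocytes and lactating epithelium all 5 combination tumors lie below the dotted line, and for hypoxia genes all 5 lie above it.

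Genes of both MHC classes had negative interactions. All 9 MHC class II genes had a negative interaction, 6 at an unadjusted p under 0.05, with a median of -0.69. Their median difference was 0.52 between anti-PD-1 and untreated tumors and -0.28 between chitin + anti-PD-1 and chitin tumors. Leaving out 1 tumor gave counts from 3, without untreated tumor 2, to 7, and with limma-voom the count was 4 and the median -1.11. H2-Eb1, a chain of the class II molecule I-E, was at 13.09, 12.02, 12.17 and 13.63 in untreated tumors and at 13.49, 13.36, 13.46, 13.93 and 13.58 in anti-PD-1 tumors. With chitin it was at 11.81, 13.62, 12.76, 12.30 and 13.49, and with both at 12.44, 12.03, 12.19, 12.08 and 12.79. Hence all combination tumors lay below all anti-PD-1 tumors, whereas untreated and chitin tumors were spread over the range of both. The interaction of H2-Eb1 was -1.33 ± 0.48 (SE), that of the invariant chain gene Cd74 -1.04 ± 0.39 and that of H2-Ob -0.69 ± 0.27. All 14 MHC class I presentation genes were negative as well, with a median of -0.35, but 0 were at an unadjusted p under 0.05 and the smallest p was 0.0706. The class I count was 4 without untreated tumor 1 or 5, and the difference between the classes was not tested.

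Of 14 dendritic cell genes, 13 had a negative interaction (median -0.45), and 2 were at an unadjusted p under 0.05. These were Ccr7 (-0.85 ± 0.34, SE), the homing receptor of dendritic cells and naive T cells, and Xcr1 (-0.93 ± 0.43), a receptor of cross-presenting dendritic cells. Without anti-PD-1 tumor 2, 7 dendritic cell genes were at that threshold, and with limma-voom 1 was. That tumor stood apart in the mean of this list, so the higher count without it adds no support. The interferon-gamma-induced genes (20 of 23 negative, median -0.21) and the type I interferon-stimulated genes (13 of 19 negative, median -0.15) had no gene at an unadjusted p under 0.05.

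Chemokine interactions lay on both sides of 0. Among 19 measured genes, 8 were positive and 11 negative, with a median of -0.05 (-0.38 without anti-PD-1 tumor 2), 1 positive and 2 negative at an unadjusted p under 0.05. Ccl22 (Entrez 20299, chromosome 8, 94745684 to 94751388), which attracts regulatory and type 2 helper T cells, was at 6.98, 7.0, 7.10 and 7.72 in untreated and at 8.41, 7.06, 8.30, 8.47 and 8.44 in anti-PD-1 tumors. It was at 7.89, 7.25, 6.91, 7.24 and 8.02 with chitin and at 6.58, 7.56, 6.81, 6.75 and 7.64 with both. Without tumor 2, the anti-PD-1 group is above all others. The interaction was -1.33 ± 0.42 (SE, unadjusted p = 0.00552), and -1.60 without that tumor. Ccl17, which acts on the same receptor CCR4, had -0.54 ± 0.26 and kept an unadjusted p under 0.05 in 6 of 19 fits without 1 tumor.

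Cxcl2 (Entrez 20310, chromosome 5, 90903899 to 90905938), a neutrophil attractant, had the most positive interaction of all 14318 genes, 1.605 ± 0.69 (SE, unadjusted p = 0.0319). It was at 7.50, 7.42, 7.49 and 6.69 in untreated tumors, 6.40, 7.92, 6.54, 6.62 and 6.62 in anti-PD-1 tumors, and 6.65, 6.47, 7.75, 7.18 and 6.39 in chitin tumors. With both treatments it was at 10.29, 7.52, 7.62, 6.96 and 7.79. Combination tumor 1 was far above all others, 3 of the 4 others lay slightly above the highest untreated tumor, and anti-PD-1 tumor 2 and chitin tumor 3 were as high as these. Without that tumor the interaction was 1.04, more than 1.5 times smaller, and on linear normalized counts the unadjusted p was 0.245. Of the cytokines measured as proteins in the study, Tnf was the other gene at an unadjusted p under 0.05, with -0.32 ± 0.14, and Csf3, Il1b, Il6, Il10, Il4, Tgfb1 and Ccl2 had interactions of 0.70 ± 0.58, 0.63 ± 0.51, 0.32 ± 0.17, 0.13 ± 0.39, -0.01 ± 0.13, 0.005 ± 0.22 and 0.09 ± 0.30.

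Neutrophil genes lay above additivity as a list. Of 15 measured genes 13 had a positive interaction, 6 at an unadjusted p under 0.05, with a median of 0.43. The 2 others were negative, the lower at -1.37, but neither was at that threshold. Their median difference was 0.15 between anti-PD-1 and untreated tumors and 0.64 between chitin + anti-PD-1 and chitin tumors, so that here the anti-PD-1 difference was the larger one in the presence of chitin. Cxcr2 (Entrez 12765, chromosome 1, 74153994 to 74161246), the receptor through which neutrophils sense Cxcl2, was at 7.43, 7.60, 7.70 and 7.24 in untreated and at 7.28, 7.32, 7.57, 7.26 and 7.19 in anti-PD-1 tumors. It was at 6.93, 7.28, 7.83, 7.42 and 7.0 with chitin and at 8.68, 7.72, 7.73, 8.19 and 7.83 with both. All combination tumors were above all untreated and all anti-PD-1 tumors, and chitin tumor 3 alone reached into their range. The interaction was 0.90 ± 0.27 (SE, unadjusted p = 0.00318) and 0.74 without combination tumor 1.

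S100a8 and S100a9, which encode the calprotectin subunits of neutrophil cytosol, had interactions of 1.36 ± 0.62 and 1.55 ± 0.69 (SE). S100a8 was at 11.48, 8.11, 8.96, 9.67 and 9.44 in combination tumors and between 7.50 and 8.86 in all other tumors, so that 4 of 5 combination tumors were above the rest and tumor 2 was not. Mmp8, a collagenase of neutrophil granules, had 0.75 ± 0.25, the surface receptor gene Cd177 0.43 ± 0.19 and Fpr2 0.39 ± 0.18. When 1 tumor was left out, the median ran from 0.36 to 0.54. The count of 6 fell to 2 without anti-PD-1 tumor 4, chitin tumor 1 or 2, combination tumor 1 or 4, or untreated tumor 1, 2 or 4, and it was 3 without anti-PD-1 tumor 2. With limma-voom the count was 4 and the median 0.98. Elane, Itgb2l, Ly6g and Mpo were not among the genes of the table. The myeloid integrin gene Itgam had 0.64 ± 0.40, and Lgals3, which encodes galectin-3, 0.29 ± 0.41.

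Macrophage genes lay on both sides of 0, with 10 positive and 9 negative among 19 and a median of 0.0005, which was -0.40 without anti-PD-1 tumor 2. Msr1, a scavenger receptor, was the 1 gene at an unadjusted p under 0.05 (0.81 ± 0.31, SE), with means of 10.52 in untreated, 10.03 in anti-PD-1, 9.87 in chitin and 10.19 in combination tumors. Csf1r, the receptor for the macrophage growth factor, had -0.29 ± 0.58. The chitinase-like, chitin-sensing and type 2 genes were also spread around 0 (8 positive, 6 negative of 14, median 0.03). The exception by size was Retnla (Entrez 57262, chromosome 16, 48842609 to 48844461), which encodes a secreted protein of alternatively activated macrophages and adipose tissue, with -2.27 ± 0.78 (unadjusted p = 0.00925). It was -2.88 without anti-PD-1 tumor 2, and with limma-voom its unadjusted p was 0.205.

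Retnla was at 6.05, 6.05, 6.34 and 6.92 in untreated tumors and at 10.03, 6.41, 8.11, 9.51 and 10.19 in anti-PD-1 tumors, and 2 untreated tumors thus had 0 reads. It was at 6.30, 6.77, 6.71, 6.48 and 7.86 with chitin and at 6.41, 7.13, 7.01, 7.32 and 7.46 with both. Anti-PD-1 tumors 1, 3, 4 and 5, which had the adipocyte means of 8.46 and above, were the 4 highest of all tumors, and anti-PD-1 tumor 2 lay with the other groups. Outside that group, chitin tumors 4 and 5, with adipocyte means of 9.20 and 8.70, had Retnla at 6.48 and 7.86, and combination tumors 4 and 5, with 9.13 and 8.39, had it at 7.32 and 7.46. Chil3, the gene of CHI3L3, had an interaction of 1.57 ± 0.97 (unadjusted p = 0.124) that came from combination tumors 3 and 4, at 10.84 and 10.81, whereas the 17 other tumors ranged from 6.22 to 7.66. Chil1, the gene of CHI3L1, had -0.28 ± 0.44, and Chil4 was not among the genes of the table.

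**Figure D3:**
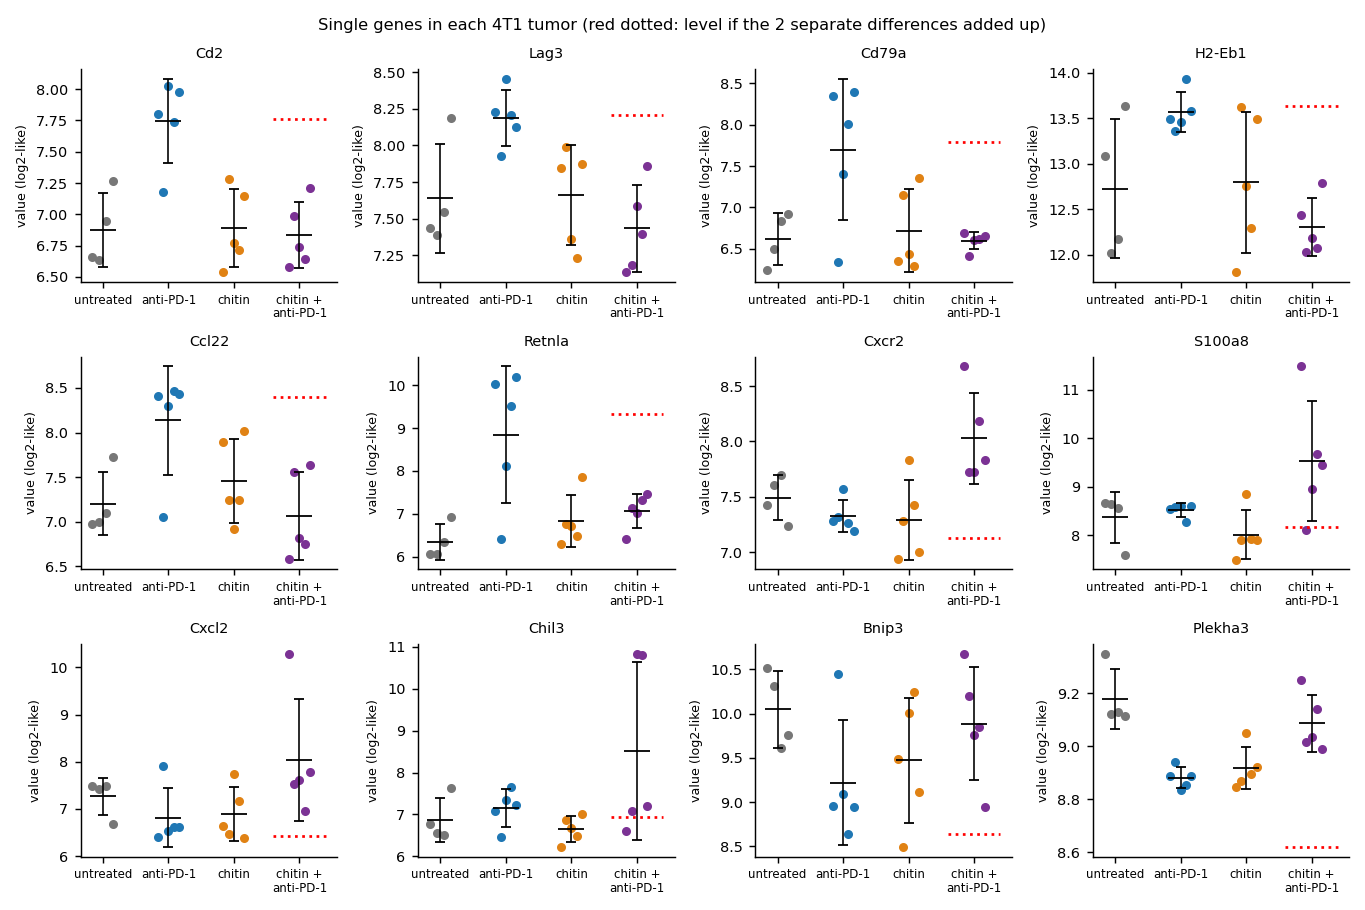
Values of 12 genes in each 4T1 tumor (y axes, log2-like scale) by treatment group (x axes); points are tumors, black bars the mean ± SD, and the red dotted line the level of the combination under additivity. Combination tumors lie below the line for Cd2, Lag3, Cd79a, H2-Eb1, Ccl22 and Retnla and above it for Cxcr2, Cxcl2, Bnip3 and Plekha3, and for Chil3 the upper pair of combination tumors carries the mean.

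Genes of hypoxia and glycolysis had the most positive median of the 26 lists, 0.74, with 14 of 15 genes positive and 3 at an unadjusted p under 0.05. The median anti-PD-1 difference was -0.55 without and 0.14 with chitin. Bnip3, which is induced by low oxygen and encodes a mitochondrial protein, was at 10.52, 10.31, 9.61 and 9.76 in untreated and at 8.96, 10.45, 9.09, 8.64 and 8.95 in anti-PD-1 tumors. It was at 9.48, 8.49, 10.01, 10.25 and 9.12 with chitin and at 10.68, 10.20, 9.75, 9.85 and 8.95 with both. Anti-PD-1 tumors 1, 3, 4 and 5 were below all untreated tumors, and tumor 2 was with them. The interactions of Bnip3, of Pgk1, a glycolytic kinase gene, and of Ankrd37 were 1.25 ± 0.54, 1.05 ± 0.47 and 0.74 ± 0.23 (SE). Without anti-PD-1 tumor 2, 11 of the 15 genes were at an unadjusted p under 0.05, against 1421 of all 14318 genes, and the list median was 0.86. Bnip3 and Pgk1 then had 1.56 and 1.38. This tumor stood apart in the mean of this same list (11.36, nearest tumor of the group 10.14). The higher count without it therefore adds no support. The count was 1 without any of 8 other tumors, anti-PD-1 tumors 1, 4 and 5 among them, and 8 without combination tumor 5, and with limma-voom it was 3.

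Endothelial and lymphatic genes were positive in 11 of 14 measured genes (median 0.44), 2 of them at an unadjusted p under 0.05. Flt1 and Vegfc, a receptor and a ligand of the VEGF family, had interactions of 0.63 ± 0.22 and 0.55 ± 0.26 (SE), and Flt1 averaged 9.87 in untreated, 9.46 in anti-PD-1, 9.33 in chitin and 9.55 in combination tumors. The median of this list was 0.21 without anti-PD-1 tumor 2 and at its lowest 0.17 when any 1 tumor was left out. Of 12 immediate-early genes 11 were positive (median 0.16) and 2 at an unadjusted p under 0.05, which were Fosb (0.60 ± 0.19) and Dusp1 (0.90 ± 0.29), a transcription factor subunit and a phosphatase induced by stress. Of 12 clock genes 8 were positive (median 0.21), and Per1 (0.50 ± 0.21) and Nr1d2 (0.59 ± 0.21), both repressors of the circadian oscillator, were at that threshold. The hours at which tumors were removed are not given in the labels.

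The most negative medians belonged to tissue that surrounds the tumor rather than to immune cells. The 12 adipocyte genes were all negative with a median of -1.68, but 1, Lep (-0.91 ± 0.35, SE), was at an unadjusted p under 0.05, and 11 were without anti-PD-1 tumor 2. Adipoq was at 6.38, 6.05, 6.90 and 7.31 in untreated and at 10.04, 6.05, 8.17, 8.95 and 8.82 in anti-PD-1 tumors, and at 6.35 to 8.79 with chitin and 6.33 to 8.74 with both. The 7 measured genes of the lactating mammary epithelium were also all negative (median -1.51), with Csn2 (-2.29 ± 1.03) and Cel (-1.51 ± 0.65), a milk casein and a milk lipase, at an unadjusted p under 0.05, and all 7 were without anti-PD-1 tumor 2 (Csn2 -2.90). Anti-PD-1 tumor 2 had been set apart for its low adipocyte and milk values. Higher counts without it therefore repeat that choice and add no support. With limma-voom 0 genes of either list were at that threshold, and the medians were -3.46 for the adipocyte and -3.94 for the lactation list. Summed over the lactation genes alone, the normalized counts ran from 5.91 to 284 in untreated, 5.35 to 3580 in anti-PD-1, 29.6 to 2868 in chitin and 16.4 to 1491 in combination tumors. Csn1s2a, Csn1s2b, Glycam1, Lalba, Olah and Wap were not among the genes of the table. Skeletal muscle genes were positive in 15 of 16 (median 0.51) with 0 at an unadjusted p under 0.05. The muscle mean was highest in combination tumor 5 (9.73), anti-PD-1 tumor 3 (9.61) and untreated tumor 4 (8.87), against 6.61 to 8.11 in the 16 other tumors, and the median interaction was 0.0954 without combination tumor 5 and 0.943 without anti-PD-1 tumor 3.

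Lists of tumor cells, matrix and proliferation had medians near 0 with members on both sides. Epithelial and mesenchymal genes had 9 positive and 10 negative interactions of 19 (median -0.01), collagen and matrix genes 8 and 10 of 18 (median -0.09) and proliferation genes 14 and 5 of 19 (median 0.08), and none of these 56 genes was at an unadjusted p under 0.05. The collagen median was not settled, with 0.529 without combination tumor 1 and -0.389 without combination tumor 2. Usf1 and Rab37, a transcription factor and a small GTPase that the study names for its RNA results, had -0.15 ± 0.16 and -0.09 ± 0.12 (SE). Over the 16 genes that the study names from its RNA data on the 4T1 or the 66cl4 model, a choice that is not independent of these values, 11 interactions were negative, and Cxcl2, Pdcd1, Lag3 and Cd8a were at an unadjusted p under 0.05.

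**Figure D4:**
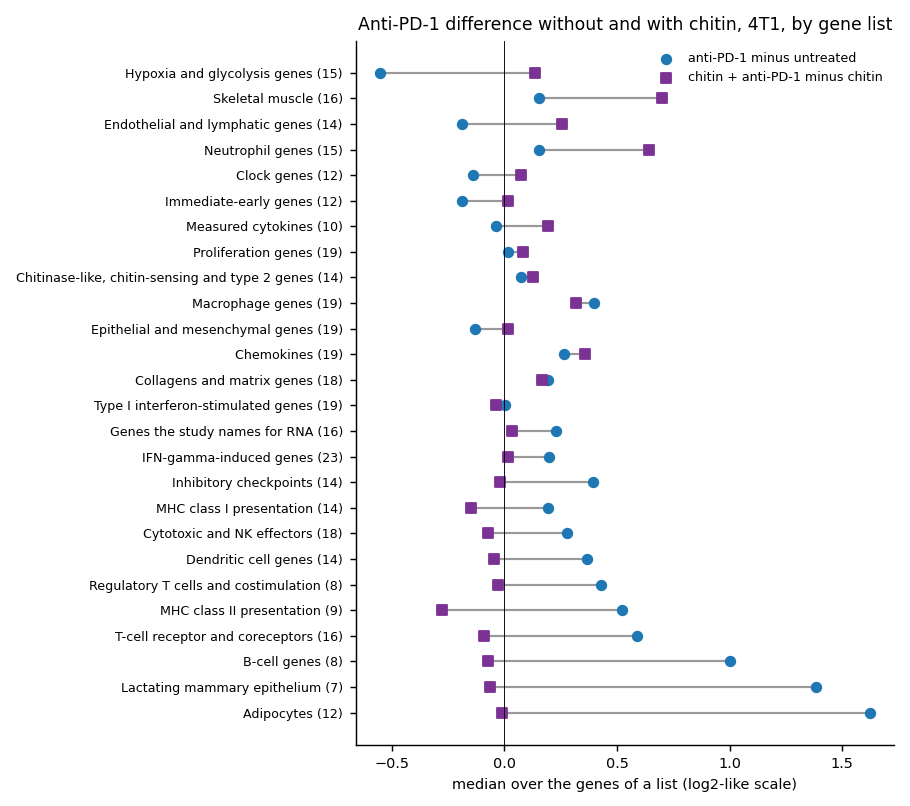
Median difference over the measured genes of each list (number in brackets) between anti-PD-1 and untreated 4T1 tumors (circles) and between chitin + anti-PD-1 and chitin tumors (squares), on the log2-like scale. Lymphocyte, MHC class II, adipocyte and lactation lists lie right of 0 without chitin and near or left of 0 with it, and the hypoxia list lies left of 0 without chitin and right of it with chitin.

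The same contrast was computed in the 20 tumors of the 66cl4-based model, another BALB/c mammary carcinoma line given the same treatments. There, too, 0% of genes passed an adjusted p of 0.05 by limma, with 714 (4.99%) at an unadjusted p under 0.05. The difference between the 4T1 and the 66cl4 interaction passed the adjusted threshold for 0% of genes, and at an unadjusted p under 0.05 it was positive for 396 genes (2.77%) and negative for 292 (2.04%). The T-cell list had a median interaction of -0.12 in 66cl4, the B-cell list -0.02, the neutrophil list 0.02, the hypoxia list -0.05 and the adipocyte list 0.21, all nearer to 0 than in 4T1. For the difference between models, 5 of 16 T-cell genes, 5 of 8 B-cell genes, 3 of 15 neutrophil genes and 1 of 15 hypoxia genes were at an unadjusted p under 0.05, always in the direction of the 4T1 value. In 66cl4 itself, 2 of the 16 T-cell genes were negative at an unadjusted p under 0.05. Cd8a had -0.42 there (limma unadjusted p = 0.00398) against -0.98 in 4T1, and its difference between models had an unadjusted p of 0.239. MHC class II genes were negative in 66cl4 as well, with a median of -0.49 against -0.69, and H2-Eb1 had -1.02 there against -1.33 in 4T1 (unadjusted p of the difference = 0.747).

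The genes with the smallest unadjusted p for the difference between models were Per1, Plekha3, Deptor, Btbd3 and Klf13 among those higher in 4T1 and Adcy5, Gm10863, Pfdn2, Cd2 and Tox2 among those lower in 4T1. Per1 had an interaction of 0.50 in 4T1 and -1.28 in 66cl4, a difference of 1.78 ± 0.36 (SE, limma adjusted p = 0.286). When 1 tumor was left out, its adjusted p ran from 0.0242 without 66cl4 anti-PD-1 tumor 3 to 0.871 without untreated 4T1 tumor 1, so that the call depended on single tumors. Deptor, an inhibitor of the growth regulator mTOR, had 0.92 in 4T1 and -0.80 in 66cl4, and Adcy5, an adenylyl cyclase gene, -0.69 and 0.90. For Plekha3, Btbd3 and Cd2 the 66cl4 interaction was near 0, at -0.03, -0.11 and 0.03.

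**Figure D5:**
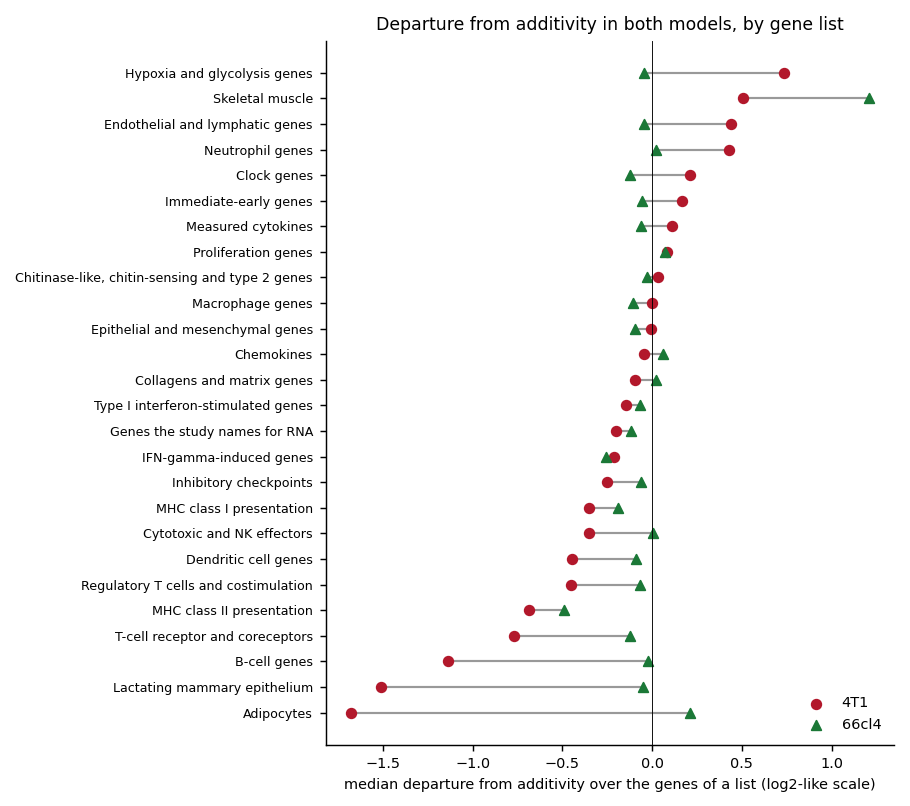
Median interaction over the measured genes of each list, on the log2-like scale, in the 19 4T1 tumors (circles) and the 20 66cl4 tumors (triangles). Adipocyte, lactation, B-cell, T-cell and hypoxia lists lie far from 0 in 4T1 and near 0 in 66cl4, MHC class II lies left of 0 in both, and skeletal muscle lies further right in 66cl4.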

How the data were processed

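The authors prepared stranded libraries from primary tumors, aligned reads to mm10 with HISAT2, counted them per gene, kept genes above a minimum count and deposited values after the variance stabilizing transformation of DESeq2, a log2-like scale. Reads and normalized counts were recovered from this scale (whole within 0.001 reads), for depth and alternatives. Untreated 4T1 tumor 3 was not analysed here. The interaction was fitted with limma 3.58.1 in R 4.3.3 (mean-variance trend) over 4 groups of 19 tumors, with Benjamini-Hochberg adjustment over 14318 genes, and over 8 groups of 39 tumors for the difference between models. Unadjusted p-values describe and call nothing. The fit was also run on simulated data with independent noise for each gene. That setting holds no correlated genes and no single divergent tumor, so no result above rests on it. The p-values weigh differences between groups against the spread between tumors, and every tumor was treated as independent. According to the paper, tumor cells were injected into a pair of mammary glands of each mouse. Tumors of a group may therefore share a mouse. The labels do not give the mouse of a tumor, so a shared mouse could not be included in the fit and the independence of the tumors was not tested.

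Named are the 12 smallest p in each direction, genes the study names or measured as cytokines, up to 3 genes per list at an unadjusted p under 0.05, and 5 per direction between models. Other members of lists were named after their values were seen. Members and lists were chosen with earlier results of these data known, so that nothing here is independent of them. Positions are from RefSeq (GRCm38.p6). Alternatives were both models in 1 fit, no trend, leaving out the lowest 25% of genes, median centring, quantile normalization, tumor weights, the tumor number as a block, limma-voom, log2 of normalized counts plus 1, linear counts, equal depth (5105898 reads) and leaving out each tumor. Python 3.11.15, numpy 2.4.6, pandas 2.3.3 and matplotlib 3.10.9 were used.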

Additional observations from a re-analysis of the deposited data

Results flagged for a closer look

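Within each 4T1 group of 4 or 5 tumors, the highest and lowest tumor was compared with its nearest neighbor by Dixon's ratio at the 95% level, for the 26 list means and 69 named genes. Of 380 such groups of values, 37 (9.74%) had a tumor that stood apart, whereas chance alone flags about 1 in 20 (5%). Anti-PD-1 tumor 2 accounted for 15 of the 37 and the anti-PD-1 group for 18.

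In anti-PD-1 tumor 2, the list means of B-cell genes (6.773), dendritic cell genes (7.708) and chitinase-like and type 2 genes (8.655) were below the other tumors of the group, and that of hypoxia genes (11.36) was above them. Lower values were found for Rnf181 (9.0), Rps6kb2 (8.301), Ccl22 (7.056), Tnfrsf18 (6.754), Ccr7 (6.953) and Tox2 (6.341). Higher values were found for Ankrd50 (9.835), Cxcl2 (7.916), Bnip3 (10.45), Pgk1 (13.16) and Nr1d2 (9.207). In anti-PD-1 tumor 3, Fosb (7.391), Klf13 (10.12) and Pfdn2 (9.036) stood apart.

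In untreated tumor 5, the values of Creld2 (9.342), Ccl22 (7.724) and Ccl5 (8.939) were high and those of Cxcl2 (6.688) and Mmp8 (6.585) low. Plekha3 was high in untreated tumor 1 (9.349) and Lep in untreated tumor 4 (6.29). Chitin tumor 5 stood apart in the MHC class I mean (11.59), the skeletal muscle mean (6.678), Cel (8.272) and Csn2 (10.07), and chitin tumor 3 in Msr1 (10.52). In the combination group, tumor 1 stood apart in the macrophage mean (9.768), Cxcl2 (10.29) and Fkbp2 (7.981), tumor 2 in Msx2 (6.525) and Cd79a (6.419), and tumor 5 in Hoxa6 (7.497) and Tox2 (6.589).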

How the results depend on the processing

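The genes called at an adjusted p under 0.05 were 0 to 1 when 1 tumor was left out, the 1 being Pla2g2d (-1.34, limma adjusted p = 0.0133) without anti-PD-1 tumor 2. They were 1 with both models in 1 fit (Plekha3, 0.46, adjusted p = 0.0367) and 0 in the other alternatives. The 648 genes at an unadjusted p under 0.05 became 1561 with both models in 1 fit and 1711 with tumor weights. They ranged from 383 without chitin tumor 5 to 1421 without anti-PD-1 tumor 2, with 430 without anti-PD-1 tumor 4 and 994 without untreated tumor 5. For the difference between models, 2 genes (Per1 and Scml4) were called with tumor weights and 0 to 1 when 1 tumor was left out, the 1 being Per1 without 66cl4 anti-PD-1 tumor 3. The cause of these changes was not tested. Pla2g2d and Scml4 are named after their values were seen.

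With the tumor number as a replicate block, 768 genes were at an unadjusted p under 0.05 for the 4T1 interaction, and 1 gene (Per1, 1.85, limma adjusted p = 0.014, range over alternatives 0.014 to 0.871) was called for the difference between models. Same-numbered tumors of different groups had no common deviation in the median (27 pairs, r from -0.392 to 0.447, median -0.0175), and 11 pairs were over 0.1. Among 108 pairs with different numbers the median was 0.00402, and 32 were over 0.1. What same-numbered tumors share beyond a number is not given in the labels, and this check cannot decide it.

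The interferon-gamma list median ran from -0.604 without untreated tumor 5 to 0.0049 without untreated tumor 4. That of the type I interferon list ran from -0.315 without untreated tumor 5 to 0.0501 without untreated tumor 2, and was 0.0952 with tumor weights. Of 26 list medians 8 took the other sign under at least 1 alternative. None of 66 named genes with a direction did so under 30 alternatives. These genes had mostly been named for a small interaction p in the same tumors, which favors a stable sign by construction. The medians of the T-cell, B-cell, MHC class II, neutrophil, hypoxia, adipocyte and lactation lists were not among the 8.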
